A study of Homo sapiens with 6 samples.

Results

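FOXO factors are forkhead transcription factors that insulin and growth factor signaling through PI3K and AKT holds out of the nucleus. When that signaling falls, they enter the nucleus and switch on genes that slow the cell cycle, raise insulin receptor signaling components, limit glucose uptake and feed protein breakdown and autophagy. Many of their target genes are also high in resting cells, together with antiproliferative genes of the BTG, TOB, YPEL and ZFP36 families. The list described here held 38 genes named for these roles, and their RNA was compared between spheroids and monolayers of the mesothelioma line NCI-H226.

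The genes were found by symbol in the annotation of the array. Of 54675 probe sets, 120 were annotated to a listed gene. Of these, 113 carried that gene's symbol alone and covered 36 genes, and 7 were shared with another gene. BTG2 had no probe set in the annotation used and was not analysed here, and MXD4 was read only by sets shared with MIR4800. The brightest probe set of a gene, by mean log2 level over the 6 arrays, gave the reading of that gene for all 36, and its other probe sets were then set beside that reading.

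NCI-H226 is an established human cell line of malignant mesothelioma, a tumor of the lining of the lung. Monolayers grew attached in RPMI medium with fetal bovine serum. For spheroids, cells near confluency were dissociated, seeded at 10000 cells a well on a non-adhesive poly-HEMA coat without matrix, spun together and kept for 24 hours. Each group had 3 arrays, labelled as biological replicates, and both groups are 1 cell line with no other treatment. Attachment, cell contact and dissociation before seeding differed together between the groups and cannot be told apart, and the density of the monolayers at harvest is not given in the sources used here.

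The deposited values were MAS5 signal intensities on a linear scale, with the same trimmed mean on every array. The median signal was 14.7, 14.6 and 14.7 in monolayers 1, 2 and 3 and 15.6, 18.0 and 15.2 in spheroids 1, 2 and 3. Signals are given in that order as deposited. Fold changes are differences of group means of log2 signal after each array was centred on its median, spheroids minus monolayers. A probe set was called up or down in spheroids when the Benjamini-Hochberg adjusted p of limma over 54613 probe sets was under 0.05. Without centring, the median change over all probe sets moved by 0.14 log2, from -0.07 to 0.07, so each change is relative to that median. The mesothelial marker WT1 was bright on every array (1845, 1452 and 1347 in monolayers, against 2009, 1811 and 1837 in spheroids). Of 7 mesothelial markers, 1 was called up (PDPN, log2 fold change 1.10, limma adjusted p = 0.0396) and 0 down. The PDPN call held only without monolayer 1 among the arrays left out in turn. Of the 7 markers, 6 had a positive change. The other was lower in every spheroid than in every monolayer (log2 fold change -1.24). At a limma p under 0.05 before adjustment 2 of the 7 were higher and 1 was lower. No leukocyte, endothelial or fibroblast marker was called (4, 5 and 5 read). At a limma p under 0.05 before adjustment 2, 1 and 0 of them were higher, against 9.64% of all genes. None was lower at that p, against 17.9%. Of the leukocyte markers PTPRC stayed below the array median on all 6 arrays. However, 3 of 4 were higher in every spheroid, against 11.7% of all genes (median log2 fold change 0.77). The summed signal of the leukocyte markers was 104 to 127 in monolayers and 143 to 179 in spheroids. Their part in the results was not tested.

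The promoter windows of these genes were searched for the letters that FOXO factors are known to bind, because the list is named for FOXO targets. RefSeq promoter sequences (GRCh38.p14, 250 bases before to 50 bases after an annotated start) matched 33 of the 38 genes with 65 windows. The forkhead letters GTAAACA, read on either strand, were found in 8 of the 33 genes (24.2%) and 8 of the 65 windows (12.3%), against 4.19% of all 27305 genes and 3.42% of all 35116 windows. The listed genes had more windows each than genes in general, so the share of windows is the closer comparison. The 8 genes were ARRDC3, BTG1, FOXO4, HBP1, PIK3IP1, TSC22D3, TXNIP and YPEL3. Stretches around the match are shown for 5 of them, read 5′ to 3′ along the gene, with the forkhead letters or their reverse complement TGTTTAC in capitals. Those of TXNIP, HBP1 and BTG1 lie before the first annotated base of the gene, and those of ARRDC3 and TSC22D3 lie before a start inside the annotated span of the gene.

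TXNIP, chr1:145996657-145996743, minus strand: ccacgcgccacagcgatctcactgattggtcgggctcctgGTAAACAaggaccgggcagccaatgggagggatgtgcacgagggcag
ARRDC3, chr5:91380098-91380166, minus strand: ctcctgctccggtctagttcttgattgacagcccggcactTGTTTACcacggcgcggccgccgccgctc
HBP1, chr7:107168790-107168876, plus strand: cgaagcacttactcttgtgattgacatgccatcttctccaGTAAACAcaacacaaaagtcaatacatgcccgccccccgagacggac
BTG1, chr12:92146009-92146095, minus strand: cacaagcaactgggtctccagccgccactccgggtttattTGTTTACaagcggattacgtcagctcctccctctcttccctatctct
TSC22D3, chrX:107717163-107717249, minus strand: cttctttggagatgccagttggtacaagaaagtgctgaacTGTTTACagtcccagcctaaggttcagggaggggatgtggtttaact

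ARRDC3, HBP1 and TSC22D3 were called up in spheroids, and TXNIP and BTG1 were not called, as the values of each gene show further on. Among genes with a promoter window, the forkhead letters were present in 5 of 18 that were called up and 3 of 13 that were not called. The letters CAAAACA, the core of the insulin response element and distinct from the forkhead letters above, were in 4 of the 33 genes (GABARAPL1, IRS2, KLHL24 and TSC22D1) and 7.69% of their windows, against 4.92% of all windows. The E box CACGTG, which MYC, MAX and the glucose-sensing factor MLXIP are known to bind, was in 5 genes (ARRDC4, CCNG2, CITED2, MXD4 and TSC22D1) and 7.69% of their windows, against 7.26% of all windows. Its place in the glucose-responsive gene ARRDC4 and in CCNG2 is given next with the E box in capitals, both before the first annotated base of the gene. A match is a run of letters and does not show that a factor binds there.

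ARRDC4, chr15:97960453-97960538, plus strand: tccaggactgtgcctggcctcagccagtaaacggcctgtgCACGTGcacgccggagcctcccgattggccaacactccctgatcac
CCNG2, chr4:77157137-77157206, plus strand: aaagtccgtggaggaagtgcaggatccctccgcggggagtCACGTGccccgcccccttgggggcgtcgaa

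In spheroids 19 of the 36 genes were called up, none was called down and 17 were not called. In the same comparison, 3.89% of all 19775 genes were called up and 9.2% were called down. The listed genes were chosen with earlier results of these data known. Their excess over this and the following shares is therefore a description and not independent evidence. All 36 readings lay above the median level, and among the 12376 genes read above it 5.77% were called up and 14.4% down. Without centring, 6.76% of all genes were called up and 7.58% down, and 22 of the 36 listed genes were called up and none down. At an unadjusted p under 0.05, limma gave 25 listed genes up and 1 down, against 9.64% and 17.9% of all genes. The median log2 fold change was 0.98 over the listed genes, -0.06 over all genes and -0.12 over the genes above the median level. The sign was positive in 31 of 36 listed genes, against 9105 of all 19775 genes and 5024 of the 12376 above the median level. Of the called genes, 15 were over 2-fold higher in spheroids, which held for 2.42% of all genes. The 3 spheroids were all above the 3 monolayers in 26 of 36 genes, against 11.7% of all genes, and all below in 1 gene, against 20.5%. RNA was taken from whole cultures, so more cells holding a transcript and more transcript per cell cannot be told apart.

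**Figure D1:**
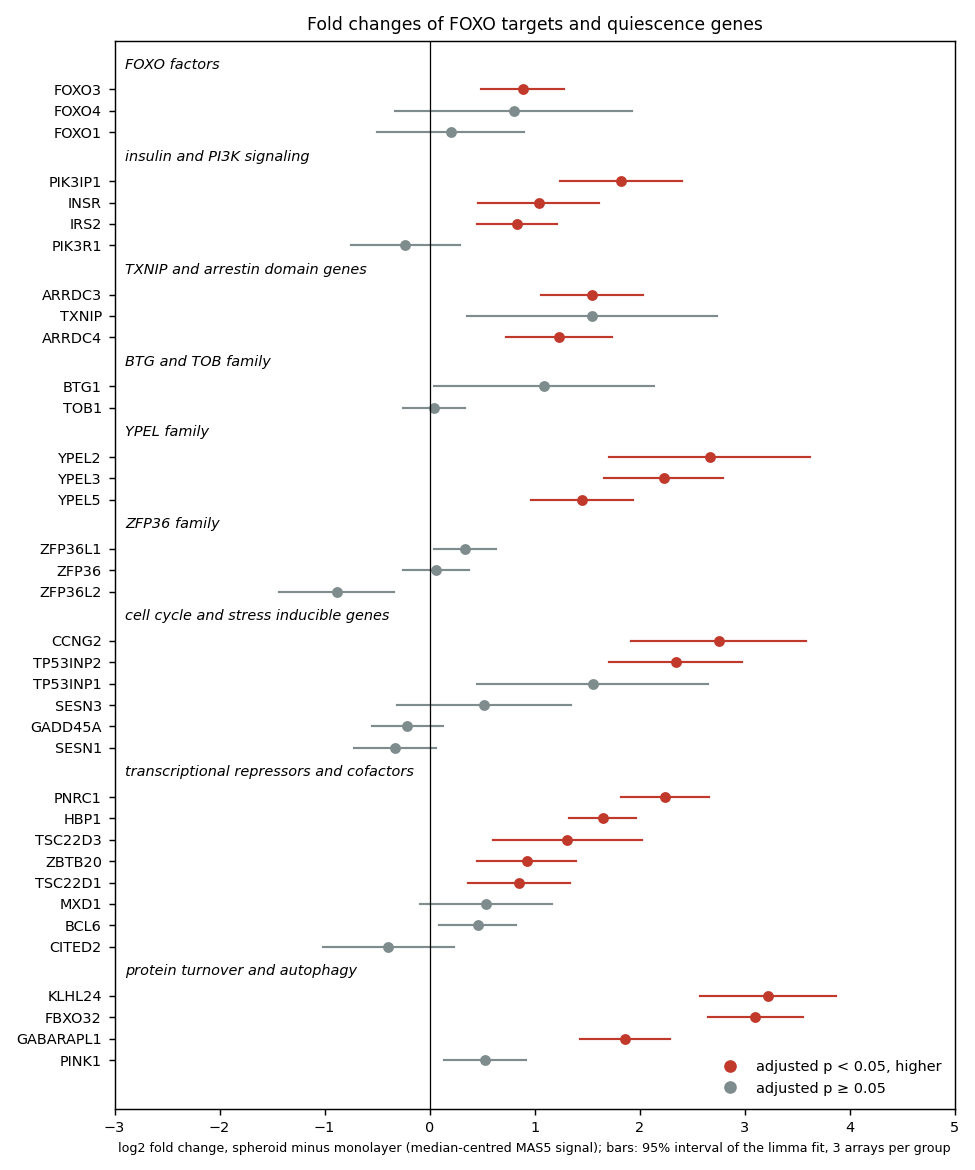
Log2 fold change of each of the 36 genes, spheroids minus monolayers, with its 95% confidence interval from limma (3 arrays a group), grouped by role and colored by call. The 19 genes called up run from FOXO3, IRS2 and TSC22D1 below 1 to FBXO32 and KLHL24 above 3, and no gene was called down.

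The largest readings belonged to genes of protein turnover and of the cell cycle. KLHL24 was 9.34-fold and FBXO32 8.58-fold higher in spheroids, and CCNG2 was 6.73-fold higher. The call held when each array was left out in turn for 13 of the 19 genes (PIK3IP1, ARRDC3, ARRDC4, YPEL2, YPEL3, YPEL5, CCNG2, TP53INP2, HBP1, PNRC1, FBXO32, KLHL24 and GABARAPL1), and it ended without at least 1 array for FOXO3, INSR, IRS2, ZBTB20, TSC22D1 and TSC22D3. Most of the calls rest on the mean-variance trend of limma. Without the trend, and with the error still pooled, 6 genes were called up (YPEL3, HBP1, PNRC1, FBXO32, KLHL24 and GABARAPL1). The methods' t-test after adjustment called 5 genes, those without YPEL3.

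**Figure D2:**
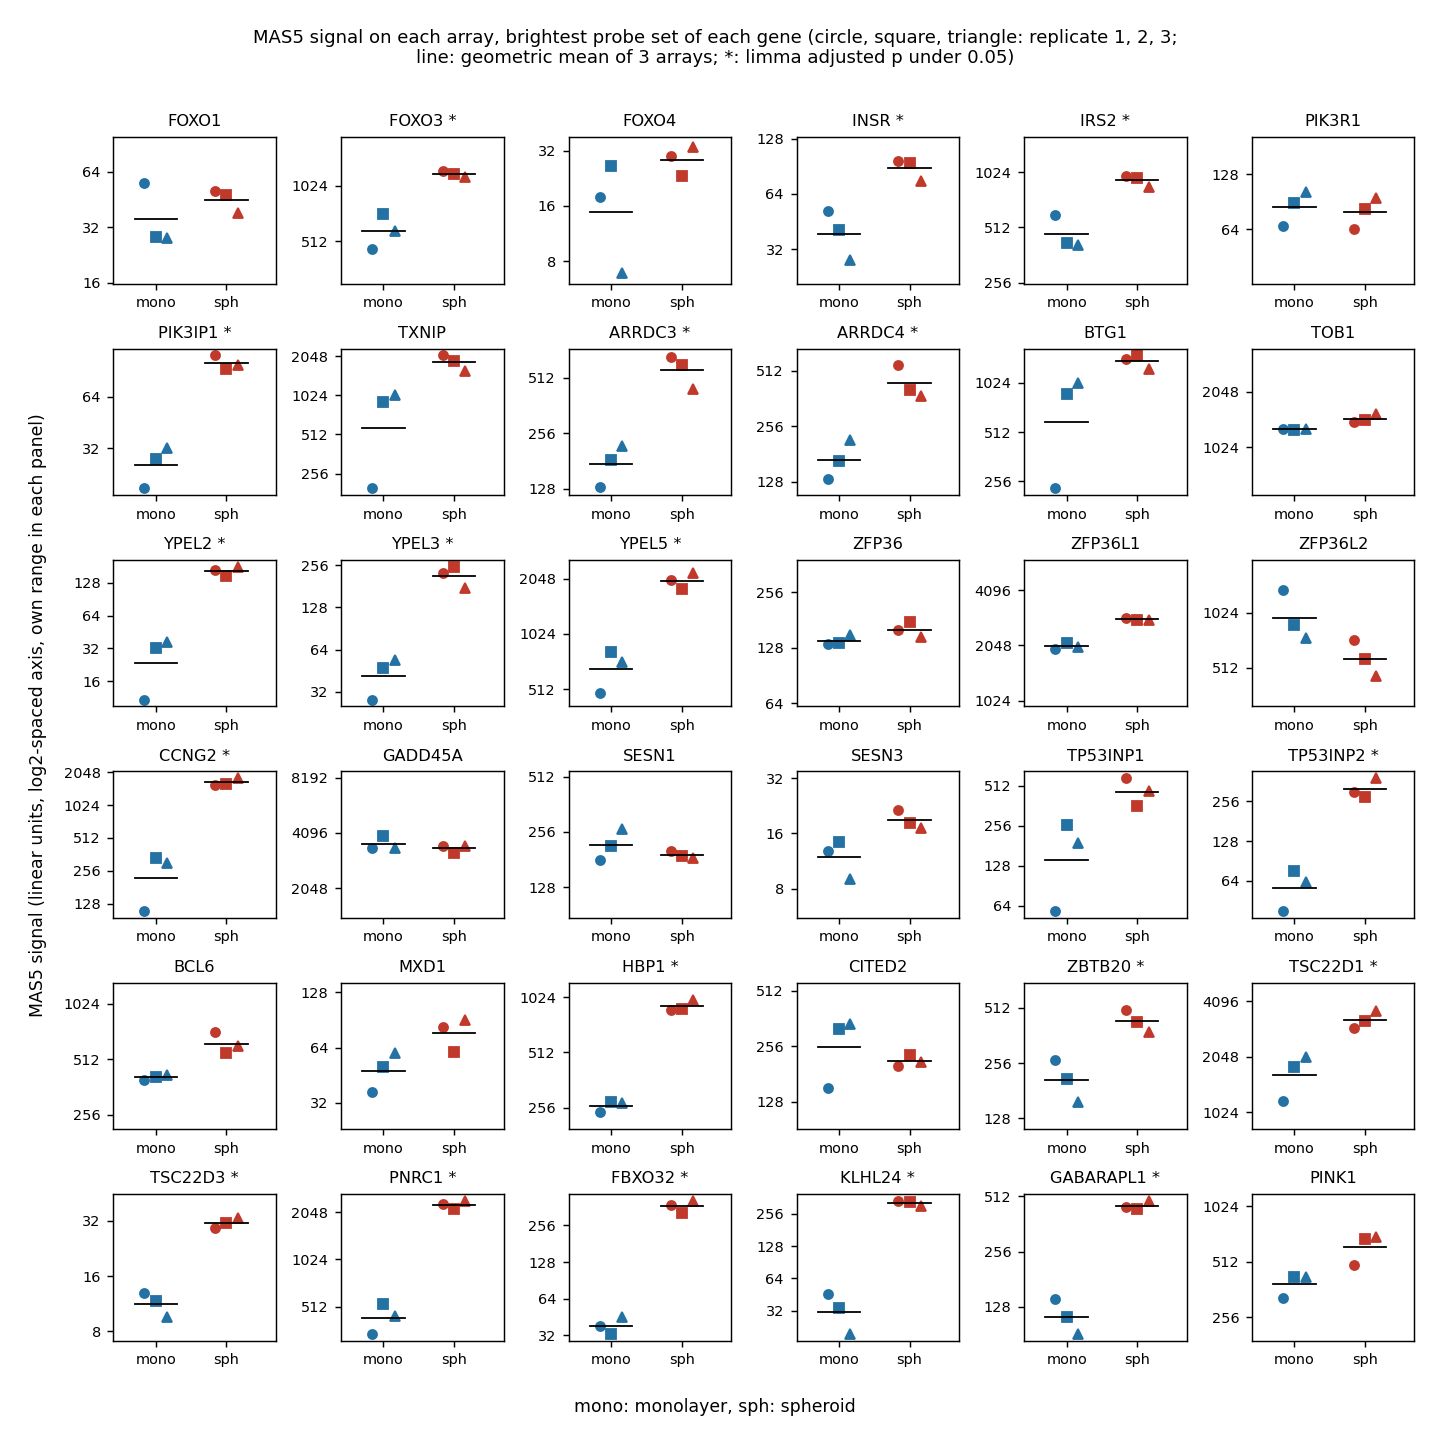
Deposited signal of the reading probe set of each of the 36 genes on each of the 6 arrays (log scale), monolayers 1 to 3 and spheroids 1 to 3. For PNRC1, HBP1 and FBXO32 the groups are far apart and each group is narrow, whereas for TXNIP, BTG1 and TP53INP1 monolayer 1 lies far below the other monolayers.

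Among the FOXO factors themselves, 1 of 3 was called up. FOXO3 had signals of 462, 724 and 586 in monolayers, against 1229.9, 1189.8 and 1142 in spheroids at its reading probe set. All spheroids were higher than all monolayers, a 1.85-fold difference (log2 fold change 0.89 ± 0.17 SE, limma adjusted p = 0.0147). The call ended without monolayer 3, spheroid 1 or spheroid 3 (adjusted p 0.0546 to 0.0611, log2 fold change 0.83 to 0.89). Another pair of FOXO3 probe sets had log2 fold changes of 0.65 and 0.71 with adjusted p values just over the threshold (0.0521 and 0.0566 by limma). Of 3 sets shared by FOXO3 and its near-identical copy FOXO3B, 1 was called up (log2 fold change 0.89, limma adjusted p = 0.0405), and those sets do not tell the copies apart. FOXO1 was dim, at 37.5 ± 16.0 in monolayers and 45.4 ± 6.41 in spheroids (SD, n = 3), and was not called (log2 fold change 0.20 ± 0.31 SE, limma adjusted p = 0.776, 95% interval -0.50 to 0.90). Without monolayer 1 its change was 0.53 and still not called (adjusted p = 0.234 by limma). Its dimmer probe sets were not called either (log2 fold change 0.58 and 0.20). At the set with 0.58 every spheroid was above every monolayer. FOXO4 was dimmer still, with 17.9, 26.4 and 6.87 in monolayers, against 29.8, 23.4 and 33.3 in spheroids, and its groups overlapped (log2 fold change 0.80, limma adjusted p = 0.407). At these levels the intervals were too wide to show whether FOXO1 or FOXO4 differed by as much as FOXO3.

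Insulin receptor signaling genes that FOXO factors are known to raise were higher in spheroids. INSR, the insulin receptor, had signals of 51.9, 40.5 and 28.0 in monolayers, against 96.8, 94.6 and 75.1 in spheroids (log2 fold change 1.04 ± 0.25 SE, limma adjusted p = 0.0354). Every spheroid exceeded every monolayer, but the call held only without monolayer 1 among the 6 arrays left out in turn (adjusted p 0.0886 to 0.112 without each of the others, log2 fold change 0.80 to 1.11). None of the other 4 INSR probe sets was called, and all had a positive change. IRS2, an adaptor that carries the signal from the receptor to PI3K, had 596, 419.6 and 411 in monolayers, against 977, 945 and 851 in spheroids (log2 fold change 0.83 ± 0.17 SE, limma adjusted p = 0.0164). A further IRS2 probe set was also called up (log2 fold change 0.77, limma adjusted p = 0.0219). Both IRS2 calls ended without monolayer 2, monolayer 3, spheroid 1 or spheroid 3 (adjusted p 0.0598 to 0.0965, log2 fold change 0.66 to 0.84).

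PIK3IP1, a membrane protein that binds and inhibits PI3K, showed the widest separation of this group. Its signals were 18.8, 27.9 and 32.3 in monolayers, against 111, 92.9 and 97.2 in spheroids at the reading probe set (log2 fold change 1.82 ± 0.26 SE, limma adjusted p = 0.00337). At another set they were 4.56, 7.74 and 12.6 in monolayers, against 163, 131 and 153 in spheroids, a 17.6-fold difference (log2 fold change 4.14 ± 0.37 SE, limma adjusted p = 6.87e-04). The monolayer signals of that set lay below the array median, so its fold rests on dim monolayer values. PIK3R1, the regulatory subunit of PI3K, was at 86.0 ± 17.8 in monolayers and 80.7 ± 15.5 in spheroids (SD, n = 3) and did not pass the test (log2 fold change -0.23, limma adjusted p = 0.63, 95% interval -0.75 to 0.29).

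TXNIP, ARRDC3 and ARRDC4 encode related arrestin domain proteins that take glucose transporters or receptors off the cell surface. ARRDC3 rose in spheroids, with 131, 183 and 219 in monolayers, against 664, 603 and 443 in spheroids (log2 fold change 1.55 ± 0.21 SE, limma adjusted p = 0.00303). ARRDC4 rose as well, with 133, 167 and 215 in monolayers, against 552, 405 and 375 in spheroids (log2 fold change 1.23 ± 0.22 SE, limma adjusted p = 0.00988). In both genes every spheroid was higher than every monolayer, and spheroid 1 was the highest. TXNIP had signals of 197, 908 and 1033 in monolayers, against 2080.4, 1888 and 1570.1 in spheroids. Its difference was close in size to the change of ARRDC3, but monolayer 1 was far below monolayers 2 and 3 and the test was not passed (log2 fold change 1.54 ± 0.53 SE, limma adjusted p = 0.112). The other TXNIP probe sets had log2 fold changes of 1.50 and 1.59 (adjusted p 0.0986 and 0.083 by limma). Without monolayer 1 TXNIP was called up with a smaller change (log2 fold change 0.78, adjusted p = 0.0138 by limma).

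Genes that halt the cell cycle or respond to stress were split. CCNG2, a cyclin that rises in cells leaving the cell cycle, had 109.5, 336 and 299.7 in monolayers, against 1574, 1594 and 1807 in spheroids (log2 fold change 2.75 ± 0.37 SE, limma adjusted p = 0.00262). The lowest spheroid was more than 4 times the highest monolayer. Of its 5 probe sets 4 were called up, with log2 fold changes from 2.75 to 3.24, and all 4 calls held without each array. TP53INP2, which acts in autophagosome formation, had 37.8, 76.2 and 62.7 in monolayers, against 303, 274 and 384 in spheroids (log2 fold change 2.34 ± 0.28 SE, limma adjusted p = 0.00166). Its relative TP53INP1, a p53 target, had 58.4, 260.3 and 190.1 in monolayers, against 586, 359 and 469 in spheroids and did not pass the test (log2 fold change 1.55 ± 0.49 SE, limma adjusted p = 0.0858). Without monolayer 1 TP53INP1 was called up (log2 fold change 0.91, adjusted p = 0.0469 by limma).

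The other genes of that group showed no call at any probe set. GADD45A, a growth arrest gene induced by DNA damage, was bright in both groups, at 3557 ± 324 in monolayers and 3389 ± 181 in spheroids (SD, n = 3) (log2 fold change -0.21 ± 0.15 SE, limma adjusted p = 0.475). Its 95% interval of -0.55 to 0.13 lay within a 2-fold change in either direction. SESN1, a sestrin that restrains mTOR, was at 220.4 ± 43.3 in monolayers and 192 ± 8.78 in spheroids (SD, n = 3) (log2 fold change -0.33, limma adjusted p = 0.316, 95% interval -0.72 to 0.07). SESN3 was dim, at 12.1 ± 2.8 in monolayers and 18.9 ± 2.27 in spheroids (SD, n = 3), with a log2 fold change 0.52, limma adjusted p = 0.47 at the brightest of its 7 probe sets. Its other sets ran from -1.86 to 0.68 and all lay below the median level.

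BTG1 and TOB1 belong to a family of antiproliferative proteins that recruit the machinery removing poly(A) tails, and neither was called. BTG1 had 232, 868 and 1026 in monolayers, against 1429, 1505 and 1249 in spheroids. All spheroids exceeded all monolayers, with monolayer 1 well below the others (log2 fold change 1.09 ± 0.46 SE, limma adjusted p = 0.205). Without monolayer 1 the log2 fold change was 0.42 and still not called (adjusted p = 0.101 by limma). TOB1 was even across the arrays, at 1284 ± 8.08 in monolayers and 1464 ± 79.8 in spheroids (SD, n = 3) (log2 fold change 0.04 ± 0.13 SE, limma adjusted p = 0.899, 95% interval -0.25 to 0.34). As deposited its spheroid signals were all above its monolayer signals, and after centring the groups overlapped. The sign of its near-zero change turned without spheroid 3 (-0.048).

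All 3 YPEL genes, small conserved zinc-binding proteins of which YPEL3 is known to arrest growth, rose in spheroids. YPEL2 had 10.8, 32.5 and 37.0 in monolayers, against 167, 149 and 180.2 in spheroids (log2 fold change 2.67 ± 0.42 SE, limma adjusted p = 0.00555). YPEL3 had 28.1, 47.3 and 54.4 in monolayers, against 227, 250.1 and 177 in spheroids (log2 fold change 2.23 ± 0.25 SE, limma adjusted p = 0.00129). YPEL5 was the brightest, with 488, 819.9 and 719 in monolayers, against 2008, 1800.1 and 2187 in spheroids (log2 fold change 1.45 ± 0.21 SE, limma adjusted p = 0.00399). In each of these genes the lowest spheroid was more than 2 times the highest monolayer. Further probe sets of YPEL2 (log2 fold change 1.60, limma adjusted p = 0.0343) and YPEL5 (log2 fold change 1.08, limma adjusted p = 0.0082) were also called up, and 2 sets of YPEL2 and YPEL3 at low signals were not. The further YPEL2 call ended without monolayer 3 or any 1 spheroid (log2 fold change 1.45 to 1.73, adjusted p 0.0655 to 0.129) and with a floor on dim signals (adjusted p = 0.0526 by limma).

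The ZFP36 family, RNA-binding proteins that send AU-rich transcripts to decay and hold lymphocytes in a resting state, did not move together. ZFP36 was at 140.0 ± 8.78 in monolayers and 161 ± 15.1 in spheroids (SD, n = 3) (log2 fold change 0.06, limma adjusted p = 0.866, 95% interval -0.26 to 0.37). ZFP36L1 was bright and higher in every spheroid, with 1963, 2122 and 2016 in monolayers, against 2906, 2803 and 2824 in spheroids, yet its change was small and not called (log2 fold change 0.34 ± 0.13 SE, limma adjusted p = 0.154). It was called up when arrays were not centred (log2 fold change 0.48, adjusted p = 0.00625 by limma) or were quantile normalized (0.43, adjusted p = 0.00834). Another ZFP36L1 probe set was called up, with 144, 133 and 156 in monolayers, against 348, 356 and 303 in spheroids (log2 fold change 1.07 ± 0.14 SE, limma adjusted p = 0.00221), and this call held without each array.

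ZFP36L2 went the other way. Its reading probe set had 1352, 879 and 748 in monolayers, against 723, 569.7 and 462 in spheroids, all spheroids below all monolayers, and missed the threshold (log2 fold change -0.89 ± 0.24 SE, limma adjusted p = 0.0525). Without spheroid 1 it was called down (log2 fold change -1.08, adjusted p = 0.0407 by limma), and likewise when only probe sets above the median level were tested (adjusted p = 0.0311). A dimmer ZFP36L2 set was called down, with 41.1, 37.7 and 27.2 in monolayers, against 18.8, 14.0 and 8.91 in spheroids (log2 fold change -1.53 ± 0.36 SE, limma adjusted p = 0.0304). That call held only without spheroid 1 (adjusted p 0.058 to 0.116 without each of the others, log2 fold change -1.71 to -1.29). A further set had a log2 fold change of -0.71 and was not called (adjusted p = 0.0896 by limma).

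Of the transcriptional repressors and cofactors, 5 of 8 read genes were called up. PNRC1, a nuclear receptor coactivator also known for suppressing growth, had 345, 535 and 450.1 in monolayers, against 2292, 2151 and 2407 in spheroids (log2 fold change 2.24 ± 0.18 SE, limma adjusted p = 5.67e-04). HBP1, a repressor of cell cycle entry, had 244, 275 and 272 in monolayers, against 875, 885 and 983 in spheroids (log2 fold change 1.65 ± 0.14 SE, limma adjusted p = 6.14e-04). Both are bright genes with narrow groups, and their standard errors were among the smallest of the called genes. Of 3 HBP1 probe sets 1 was called, and the dimmer others were not (log2 fold change 0.76 and -0.14, limma adjusted p = 0.15 and 0.949). ZBTB20, a zinc finger repressor, had 266, 211 and 157 in monolayers, against 499.6, 428 and 378 in spheroids (log2 fold change 0.92 ± 0.21 SE, limma adjusted p = 0.0263). Only 1 of its 12 probe sets was called, and that call held only without monolayer 1 (adjusted p 0.0651 to 0.0883 without each of the others, log2 fold change 0.72 to 1.01). The other ZBTB20 sets ran from -1.29 to 1.75 and 10 of the 11 were positive.

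TSC22D1 and TSC22D3 are leucine zipper proteins, the latter (GILZ) induced by glucocorticoids. TSC22D1 rose at its reading probe set, with 1174, 1798 and 2051 in monolayers, against 2947, 3217 and 3642 in spheroids (log2 fold change 0.85 ± 0.22 SE, limma adjusted p = 0.0392). The call ended without monolayer 2 or any 1 spheroid (adjusted p 0.0766 to 0.137, log2 fold change 0.73 to 0.94) and with a floor on dim signals (adjusted p = 0.0611 by limma). Another TSC22D1 set fell, with 132, 112 and 103 in monolayers, against 52.3, 76.9 and 63.1 in spheroids (log2 fold change -1.01 ± 0.18 SE, limma adjusted p = 0.0104), and held without each array. TSC22D1 was the only one of the 36 genes with calls in both directions, and which transcript each set reads was not determined. TSC22D3 was dim but separate, with 13.0, 11.7 and 9.57 in monolayers, against 29.1, 31.2 and 33.2 in spheroids (log2 fold change 1.31 ± 0.31 SE, limma adjusted p = 0.0314). Its call held only without monolayer 1 (adjusted p 0.0793 to 0.118 without each of the others, log2 fold change 1.19 to 1.39) and ended with a floor on dim signals (adjusted p = 0.0508). The other TSC22D3 probe sets, dimmer still, had overlapping groups and were not called (log2 fold change 0.18 and -0.64, limma adjusted p = 0.851 and 0.73).

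MXD proteins pair with MAX in place of MYC and repress MYC targets. MXD1 was at 48.9 ± 11.7 in monolayers and 77.9 ± 15.7 in spheroids (SD, n = 3) and was not called (log2 fold change 0.53, limma adjusted p = 0.307). MXD4 was read only by sets it shares with MIR4800, which lies at the same locus. Of these 3 sets, 2 were called up, with 68.0, 77.4 and 61.3 in monolayers, against 260.0, 155 and 184 in spheroids at the one with the larger change (log2 fold change 1.37 ± 0.24 SE, limma adjusted p = 0.00886) and a log2 fold change of 1.05 at the other (adjusted p = 0.0328 by limma). The third, the brightest, was not called (log2 fold change 0.67, limma adjusted p = 0.127). BCL6, a repressor that FOXO factors are known to induce, was at 409 ± 13.0 in monolayers and 624 ± 83.8 in spheroids (SD, n = 3), higher in every spheroid but not called (log2 fold change 0.46 ± 0.16 SE, limma adjusted p = 0.123). It was called up without centring (log2 fold change 0.60, adjusted p = 0.016 by limma), with quantile normalization (0.64, adjusted p = 0.0116) and without spheroid 2 (0.62, adjusted p = 0.0378). CITED2, a coactivator binding factor, had 152, 316 and 337 in monolayers, against 201, 229 and 210.4 in spheroids and was not called (log2 fold change -0.39 ± 0.28 SE, limma adjusted p = 0.468). Without monolayer 1 it was called down (log2 fold change -0.76, adjusted p = 0.00695 by limma).

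Protein turnover and autophagy genes had the highest median of the groups, 2.48 log2 over 4 genes, 3 of them called up. FBXO32, the ubiquitin ligase atrogin-1 and a classic FOXO target of wasting muscle, had 38.2, 32.9 and 45.5 in monolayers, against 373, 323 and 405 in spheroids (log2 fold change 3.10 ± 0.20 SE, limma adjusted p = 2.95e-04). Another FBXO32 set read 18.3, 30.0 and 24.3 in monolayers, against 449, 385 and 541 in spheroids, a 17.3-fold difference (log2 fold change 4.11 ± 0.25 SE, limma adjusted p = 2.90e-04). In all, 5 of its 7 probe sets were called up, with log2 fold changes from 2.77 to 4.11. The dimmest of those 5 lost its call without spheroid 1 or spheroid 3 (log2 fold change 2.54 to 2.71, adjusted p 0.0596 to 0.0761).

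KLHL24, an adaptor that brings keratins to ubiquitin ligases, had 45.9, 33.7 and 19.4 in monolayers, against 336, 327 and 301 in spheroids (log2 fold change 3.22 ± 0.29 SE, limma adjusted p = 6.87e-04). Further sets rose with log2 fold changes of 2.18 and 1.85 (adjusted p 0.00243 and 0.00405 by limma). Another set, with a higher mean level than those further sets, was not called and had the opposite sign (log2 fold change -0.32, limma adjusted p = 0.372). GABARAPL1, a ubiquitin-like protein of the autophagosome membrane, had 142, 112 and 91.2 in monolayers, against 449, 433 and 482 in spheroids (log2 fold change 1.86 ± 0.19 SE, limma adjusted p = 9.69e-04). A further set was called up (log2 fold change 1.43, limma adjusted p = 0.0134), a call that ended without monolayer 3, spheroid 1 or spheroid 3 (log2 fold change 1.23 to 1.28, adjusted p 0.0503 to 0.0665). The set shared with the near-identical GABARAPL3 was called up as well (log2 fold change 1.96, limma adjusted p = 0.00253), and it does not tell these copies apart. PINK1, a kinase that marks damaged mitochondria for removal, had 327, 423 and 423 in monolayers, against 494, 685 and 696 in spheroids and was not called (log2 fold change 0.52 ± 0.17 SE, limma adjusted p = 0.101). It was called up without centring (log2 fold change 0.67, adjusted p = 0.0411 by limma) or with quantile normalization (0.71, adjusted p = 0.0369). Its other set was called up (log2 fold change 0.64, limma adjusted p = 0.042), a call that ended whichever array was left out (log2 fold change 0.48 to 0.73, adjusted p 0.0527 to 0.143).

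Counted by probe set, 35 of the 113 were called up and 2 down, against 3.18% up and 7.69% down of the 41092 probe sets with 1 symbol. Of the 80 above the median level 34 were called up and 2 down, and of the 33 at or below it 1 was called up. The 36 genes thus divided into 21 with at least 1 set called up, 2 with a set called down (ZFP36L2 and TSC22D1, which is also among the 21) and 14 with none. At least 2 sets were called up in 8 genes. Shares of all probe sets split by level, and of all genes with any set called, were not computed. These counts therefore have no background, and genes with more sets, up to 12 for ZBTB20, had more ways to be called. With each gene read by the median over its sets in place of the brightest set, the median log2 fold change was 0.78.

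**Figure D3:**
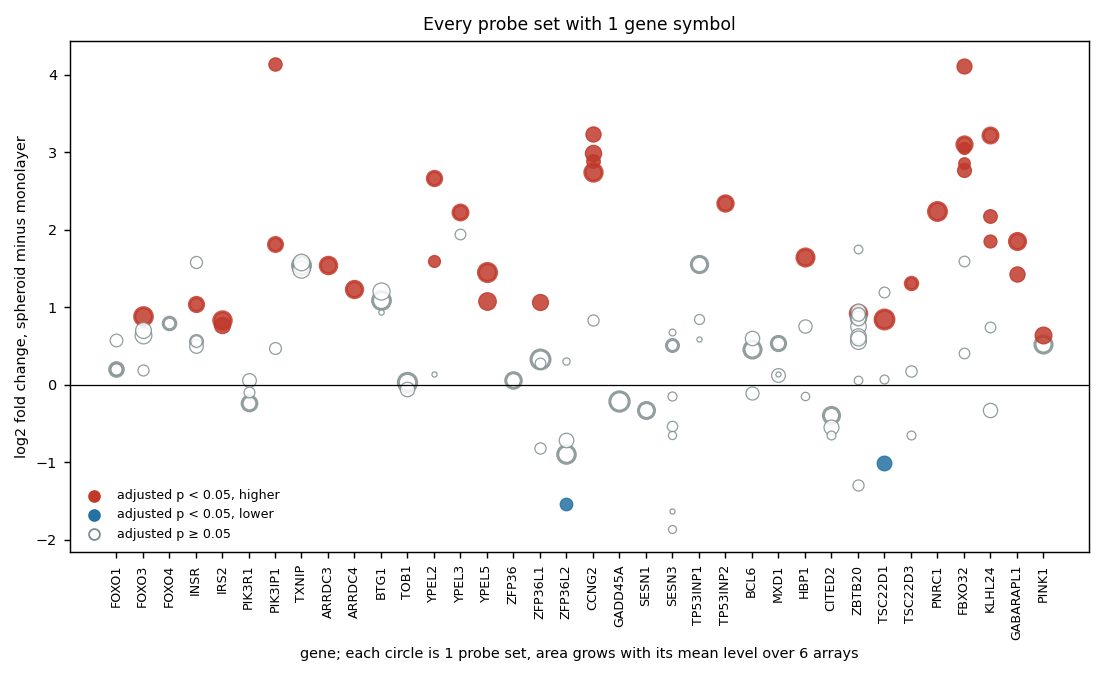
Log2 fold change (spheroids minus monolayers) of all 113 probe sets of 1 symbol, a column per gene, with circle area growing with the mean level of the set over the arrays and filled circles for calls. The 35 sets called up cluster in genes such as CCNG2, FBXO32 and KLHL24, and the 2 sets called down belong to ZFP36L2 and TSC22D1.

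Monolayer 1 stood apart for these genes. It was the lowest of the monolayers for 24 of the 36 genes (66.7%), against 40.5% of all genes. It lay more than 1 log2 below both other monolayers in 6 (16.7%), against 7.11% of all genes. Its median difference from the mean of the other monolayers was -0.39 over the listed genes and -0.02 over all genes. The 6 genes were TXNIP (-2.29), BTG1 (-2.02), TP53INP1 (-1.93), YPEL2 (-1.68), CCNG2 (-1.53) and CITED2 (-1.10). Without that array 21 of the 36 genes were called up and 1, CITED2, was called down. The share of all genes called without it was not computed. YPEL2 and CCNG2 were called with smaller changes (log2 fold change 2.11 and 2.24). Mesothelial markers also set this array apart. The summed signal of 7 of them was 8617 in monolayer 1, 3153 and 2669 in monolayers 2 and 3 and 6447 to 9116 in spheroids, with CALB2 at 1582, 163 and 83.6 in monolayers, against 2238, 1317 and 1765 in spheroids. The part of that difference in the results was not tested. Spheroid 2 was the lowest spheroid for 26 of the 36 genes (72.2%, against 50.5% of all genes), and it had the highest array median.

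**Figure D4:**
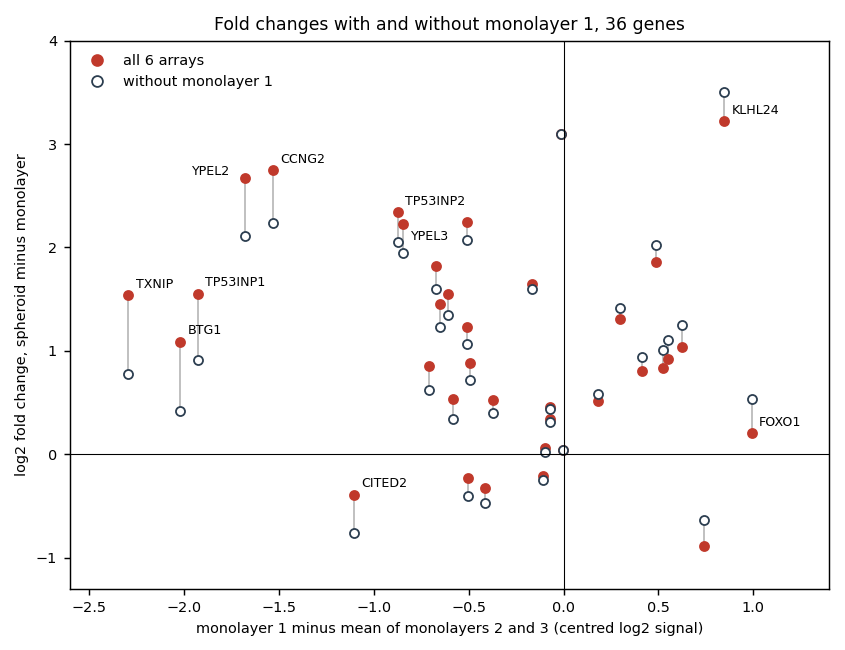
Log2 fold change of the 36 genes with all 6 arrays and without monolayer 1 (y axis, spheroids minus monolayers), against the difference of monolayer 1 from the mean of monolayers 2 and 3 in centred log2 signal (x axis). TXNIP, BTG1 and TP53INP1, where monolayer 1 is lowest, drop the most without it, and the genes to the right of 0.5 move up.

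Related genes were read in the same way from lists that overlap in a few genes. Of the insulin, PI3K, AKT and mTOR pathway 37 of 42 genes were read, with 2 called up (5.41%) and 5 down (13.5%) and a median log2 fold change of 0.03. The background for this list and those that follow is 3.89% up and 9.2% down over all genes, or 5.77% and 14.4% over those above the median level, and the shares of this list lie near the latter. DDIT4, an inhibitor of mTOR that rises under stress, was called up (log2 fold change 1.33, limma adjusted p = 0.00655), as was TSC1 (log2 fold change 0.57, limma adjusted p = 0.0287). PHLPP1, a phosphatase acting on AKT, was called down (log2 fold change -1.15, limma adjusted p = 0.00351), as was PIK3R4, a subunit of the class III PI3K (log2 fold change -0.67, limma adjusted p = 0.0184). The calls of TSC1 and PIK3R4 ended without several single arrays (adjusted p up to 0.124 and 0.0718). IRS1 (log2 fold change 1.08, limma adjusted p = 0.196), IGF1R (log2 fold change 0.59, limma adjusted p = 0.221), AKT1 (log2 fold change -0.58, limma adjusted p = 0.138) and AKT2 (log2 fold change 0.34, limma adjusted p = 0.172) were not called. Without monolayer 1 IGF1R was called up (log2 fold change 0.90, adjusted p = 0.00851 by limma) and AKT1 down (-0.76, adjusted p = 0.0302), and AKT2 was called up without centring (0.48, adjusted p = 0.0283) or with quantile normalization (0.53, adjusted p = 0.0205).

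Of the relatives of the listed genes 28 were read, with 1 called up (3.57%) and 2 down (7.14%) and a median of -0.03, shares near those of all genes. GADD45B, the relative of GADD45A, fell (log2 fold change -1.92, limma adjusted p = 6.14e-04) at all 4 of its probe sets. MXI1, the relative of MXD1 and MXD4, rose (log2 fold change 1.29, limma adjusted p = 0.00228). KLHL23 was called down (log2 fold change -0.94, limma adjusted p = 0.0139), a call that ended without monolayer 2 or spheroid 2 (-0.92, adjusted p = 0.0652 and -0.86, adjusted p = 0.0551 by limma).

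Of other genes that the literature places under FOXO control 39 were read, with 5 called up (12.8%) and 6 down (15.4%) and a median of 0.14. The share called down lies near that of genes above the median level. Without centring the same list gave 10 up and 4 down. The list was not restricted to genes that FOXO factors raise, and it shares CCNB1 and PLK1 with the proliferation list below. CDKN2B, an inhibitor of cyclin-dependent kinases, rose (log2 fold change 2.47, limma adjusted p = 6.14e-04), and so did TNFSF10, the death ligand TRAIL (log2 fold change 2.90, limma adjusted p = 0.00966), from a monolayer level below the array median. CCNB1, a mitotic cyclin, fell (log2 fold change -1.43, limma adjusted p = 0.00116). SOD2, the mitochondrial superoxide dismutase, fell at its only probe set of 1 symbol (log2 fold change -2.61, limma adjusted p = 7.35e-04), whereas all 4 sets it shares with SOD2-OT1 rose (log2 fold change 2.01 to 2.92), so the count of this list holds SOD2 in a direction that most of its probe sets do not have.

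In the MYC and MAX network 2 of 13 genes were called up (15.4%) and 1 down (7.69%), with a median of -0.01. MYC itself fell (log2 fold change -0.94, limma adjusted p = 0.0056), and MYCN was called up at 1 of its probe sets (log2 fold change 2.57, limma adjusted p = 0.0056). MAX (log2 fold change -0.13, limma adjusted p = 0.724, with the sign turned without centring, 0.010, or with quantile normalization, 0.021) and MLXIP (log2 fold change 0.52, limma adjusted p = 0.425) were not called. MLXIP was called up without monolayer 1 (log2 fold change 0.89, adjusted p = 0.0488 by limma).

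Proliferation genes fell almost throughout, with 29 of 30 called down (96.7%), none up and a median of -1.58. All 30 were lower in every spheroid than in every monolayer, against 20.5% of all genes. Among them CDC20 (log2 fold change -2.05, limma adjusted p = 5.72e-04), AURKA (log2 fold change -1.74, limma adjusted p = 4.86e-04), FOXM1 (log2 fold change -1.71, limma adjusted p = 5.91e-04) and AURKB (log2 fold change -1.58, limma adjusted p = 5.52e-04), all mitotic genes or their regulator, had the smallest adjusted p.

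**Figure D5:**
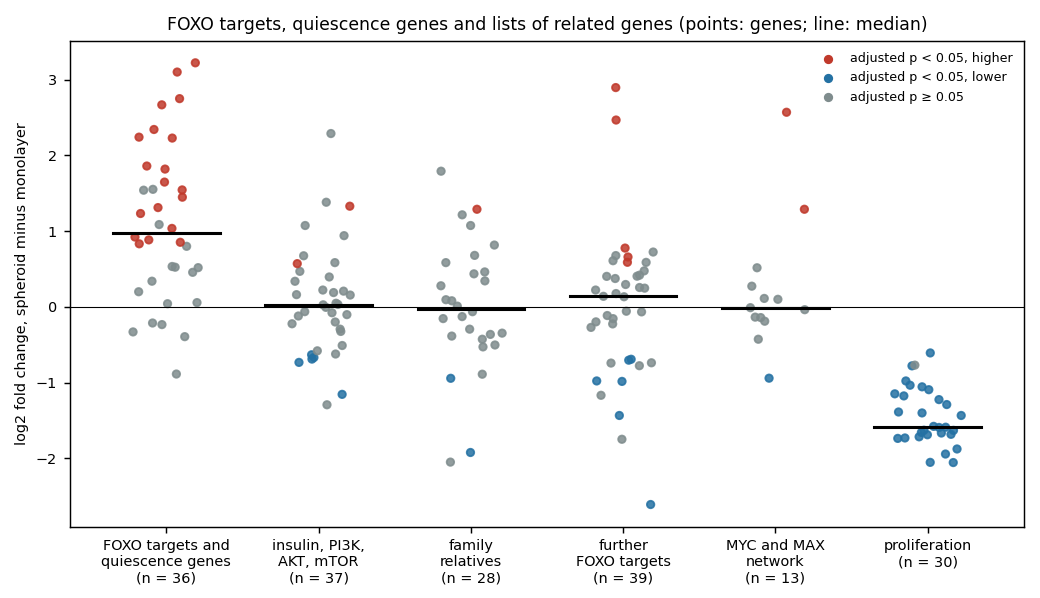
Log2 fold change (spheroids minus monolayers) of each gene of the FOXO and quiescence list and of 5 lists of related genes, with the median of each list as a line. The listed genes have a median of 0.98 and the proliferation genes one of -1.58, while the other lists lie around 0.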

How the data were processed

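RNA of 3 monolayer and 3 spheroid cultures was read on Affymetrix Human Genome U133 Plus 2.0 arrays. The authors deposited MAS5 signal intensities on a linear scale; after the top and bottom 2% of probe sets are trimmed, the mean is 150.0 on each array. The methods name a normalization to median expression, which the deposited values do not show. Detection calls were not used here, so signal over background is unknown; precision is limited by having 3 arrays a group.

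Samples were grouped by their labels. The 62 controls were left out, signals were transformed to log2 without a pseudocount, floor or filter, then the median of each array was subtracted. Groups were compared with limma 3.58.1 in R 4.3.3 (empirical Bayes with a mean-variance trend), with Benjamini-Hochberg adjustment over 54613 probe sets and a threshold of 0.05. The annotation gave 1 symbol to 41092 of these, several to 1800 and none to 11721. The brightest probe set of a gene, by mean log2 level, gave its reading. The listed genes and the lists of related genes were chosen with earlier results of these data known. Arrays were labelled biological replicates; p values measure the spread between these arrays.

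Every listed gene is accounted for, with the signal on each array for genes with a called probe set and group means for others; TXNIP, BTG1, TP53INP1, CITED2 and FOXO4 were given by array after their values were seen. Of each related list up to 4 called genes of smallest adjusted p are named, plus partners of the listed genes. Alternatives were quantile normalization or no centring, dim signals raised to the 20th percentile, dim probe sets (at or below the median level) left out, no trend, the t-test of the methods on these log2 values, a replicate block, each array left out, other readings of a gene and shared probe sets. Promoters came from RefSeq tables.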

Additional observations from a re-analysis of the deposited data

How the results depend on the processing

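Direction held in each alternative for the 54 probe sets of listed genes that were followed, except TOB1 (log2 fold change -0.048 to 0.13 over the arrays left out, below 0 without spheroid 3), and among the named related genes except MAX, at 0.010 without centring and 0.021 with quantile normalization. The number of listed genes called up was 22 without centring, with quantile normalization and with the replicate block, 17 with a floor at the 20th percentile, 5 by the methods' t-test with adjustment and 6 without the trend. Leaving out each array gave 13 to 21 genes up and 0 to 1 down, 24 to 50 probe sets up and 1 to 3 down, and a median log2 fold change of 0.92 to 1.14. One gene, ZFP36L2, was called down with only probe sets above the median level (count 1). Probe sets called down numbered 1 with the floor. Without the trend 13 probe sets were called up and 0 down, and by the t-test 11 and 0. With each gene read by the median over its probe sets, the median was 0.78. In that reading the sign turned for SESN3 (from 0.52 to -0.52) and TOB1 (from 0.04 to -0.007). Including shared probe sets gave 39 up and 2 down. Shares of all genes called were computed only for the main fit and without centring. The counts in the other settings therefore have no background.

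Monolayers and spheroids share replicate numbers, and the labels do not say whether same-numbered arrays were paired. Over all probe sets, deviations of same-numbered arrays from their group means had correlations of 0.09, -0.01 and 0.02. Arrays of different numbers had -0.08 to 0.05, so the 0.09 of the replicate 1 arrays was the largest. Correlations over all probe sets cannot show whether the listed genes vary in pairs. The main fit did not use the numbers as pairs. With the replicate block 22 listed genes were called up and 1 down, and 49 probe sets up and 4 down. TXNIP (adjusted p = 0.0467 by limma), TP53INP1 (0.0486), PINK1 (0.0373) and ZFP36L2 (0.00312) gained a call with the block, and the called listed genes kept theirs. Of related genes, IRS1 (0.0424) and IGF1R (0.0374) were called up with the block, which gave 5 up in the insulin and PI3K list and 3 up among relatives.

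In the insulin and PI3K list 4 were up and 2 down without centring, 5 and 3 with quantile normalization, and 0 and 0 by the t-test and without the trend. Among relatives 5 were up without centring, 3 with quantile normalization, 2 with the floor and 2 above the median level, with 0 up and 1 down by the t-test and without the trend. Further FOXO targets had 10 up without centring, 11 with quantile normalization, 1 up and 1 down without the trend, and 1 and 2 by the t-test. The MYC and MAX network had 0 up and 0 down by the t-test and without the trend. Proliferation genes called down numbered 9 without the trend and 11 by the t-test. Leaving out each array gave 1 to 3 up and 1 to 8 down in the insulin and PI3K list, 1 to 2 and 1 to 3 among relatives, 2 to 5 and 2 to 7 among further FOXO targets, 2 to 3 and 1 to 1 in the MYC and MAX network, and 0 up and 26 to 28 down for proliferation genes. The cause was not tested. The deposited signals carry no detection call, so dim probe sets such as those of SESN3 and FOXO4 limit what could be seen.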
